A study of Mus musculus with 12 samples.

Results

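Inhibitory receptors and regulatory T cell genes were followed across 12 polyA RNA libraries of mouse thymus. The 10 genes were chosen by name, out of 51826 genes in the deposited tables, and each gene's transcripts were summed. They are the inhibitory receptors Pdcd1, Tigit, Lag3, Havcr2, Ctla4, Cd160 and Btla, the transcription factor Foxp3, and the costimulatory receptors Tnfrsf4 and Tnfrsf18. The study compared 9 T cell acute lymphoblastic leukemias, from mice in which expression of the interleukin-7 receptor alpha chain is switched on by tetracycline, with 3 thymus samples of healthy mice. The tumor libraries carry the genotype IL7R Dox induced IL7R and the healthy ones the genotype control, and all 12 share the strain label F5. The labels state neither age, nor the promoter that drives the transgene, nor whether each library came from its own animal. A p-value below therefore sets the difference between the groups against the spread of these samples only, and that spread may be technical.

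Inhibitory receptors are membrane proteins that dampen signaling through the T cell receptor. T cells put them on the surface after activation, and chronically stimulated T cells keep several of them together, a state called exhaustion. Foxp3 is the transcription factor that specifies regulatory T cells, which arise in part in the thymus and carry Ctla4, Tnfrsf4 and Tnfrsf18 at high levels. Signaling from the interleukin-7 receptor runs through the transcription factor STAT5, which also acts downstream of interleukin-2 in regulatory T cells.

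The libraries fell apart in a way that the labels do not describe, and every value below has to be read with that. Odorant and vomeronasal receptor genes (symbols starting Olfr or Vmn, 1432 genes, called receptor genes here), whose known site of expression is the nose, served as a measure of background. Density here means normalised counts (CPM, scaled by trimmed mean of M-values, TMM, factors) per kilobase of a gene's longest transcript. The receptor genes' median density spanned 0.647 to 0.687 CPM per kilobase over the controls, with 0.556 to 0.711 in tumors 7 to 9, but 0 to 0.377 in tumors 1 to 6. Between 98.3% and 99.2% of receptor genes had a count in the controls and tumors 7 to 9, against 44.8% to 92.6% in tumors 1 to 6. T cell markers moved the other way. The summed level of 10 such markers (Cd3d, Cd3e, Cd3g, Cd247, Lck, Thy1, Cd2, Cd4, Cd8a and Cd8b1) was 41.2 to 87.6 CPM across controls, and 52.1 to 103 in tumors 7 to 9, but 1168 to 1364 in tumors 1 to 6. At most 2 of the 10 exceeded the 95th percentile of receptor genes in any control or in tumors 7 to 9, against 9 or 10 in tumors 1 to 6. Of 6 thymic epithelium markers none exceeded it in any library, and of the T cell markers Cd3d and Cd3g passed it in control 1, at 1.18 and 1.24 times, and none in controls 2 and 3. Il7r, the induced gene, stood at 2.52 to 3.20 CPM across controls, with 33.3 to 511 for tumors 1 to 6 and 5.03 to 5.63 for tumors 7 to 9. Totals were 8133152 to 12019924 estimated counts in the controls and 11617724 to 34769946 in the tumors, and after scaling 1 count was worth 0.0331 to 0.136 CPM. Because of the receptor-gene values, results are given for all 12 libraries and again for tumors 1 to 6 and tumors 7 to 9 separately. That split rests on the receptor genes and is not the study's own.

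Over all 12 libraries none of the 10 genes passed the test between tumors and controls. All 10 passed the filter on low counts. By edgeR's quasi-likelihood test with Benjamini-Hochberg adjustment, 0 members were called higher and 0 lower at an adjusted p below 0.05, where 0% of 40521 genes were called higher and 0.00494% lower. At an unadjusted p below 0.05, 1 member (Pdcd1) passed. The members' median log2 fold change was 0.34, that of all genes tested -0.45 and that of the receptor genes -0.88. DESeq2, which called 9.97% of genes higher and 0.126% lower, called Pdcd1 alone higher, with a log2 fold change of 2.49 and an adjusted p of 0.0324.

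With tumors 7 to 9 left out, 5 of the 10 genes passed. Pdcd1, Btla and Cd160 were called higher and Tigit and Lag3 lower in tumors 1 to 6, where edgeR called 19.6% of 38567 genes higher and 20.3% lower. The members' counts, 3 of 10 higher and 2 of 10 lower, have to be read against those shares. Tumors 1 to 6 were set apart by low receptor-gene density, so genes that follow the receptor genes were bound to come out lower. The receptor genes' median log2 fold change in this fit was -2.15. The lower calls for Tigit and Lag3 are therefore no separate evidence of a change. The calls of members also depended on how the libraries were scaled. With the size factors of the DESeq2 type (RLE), Pdcd1 was the 1 member called higher and Tigit and Lag3 were called lower, with 18% and 32.5% of all genes called higher and lower. With library totals alone, 0 members were called higher and 7 lower, with 4.29% and 74.7% of all genes called, and the fold changes of Btla and Cd160 turned negative. These fits with other factors and without tumors 7 to 9 were added after the first results were seen. The scalings shift the whole distribution: the median log2 fold change of all genes in tumors 1 to 6 was -1.29 with TMM factors, -1.58 with RLE factors and -3.70 with library totals. Because a change of factors shifts all genes by a similar amount, the distances that follow were bound to stay alike. They do not check the calls. Each is measured from that median. Pdcd1 lay 4.46, 4.52 and 4.56 above it on the log2 scale under TMM, RLE and library totals, Btla 2.96, 2.93 and 3.15, and Cd160 2.59, 2.60 and 2.67. With TMM factors the members not called also lay above it. Havcr2 did so by 1.47, Ctla4 by 1.47, Foxp3 by 0.83, Tnfrsf4 by 1.47 and Tnfrsf18 by 1.85. In the same order of scalings, Tigit lay 0.46, 0.48 and 0.58 below the median of all genes, and Lag3 0.22, 0.22 and 0.20 below. Measured from the receptor genes' median instead, both lay above: Tigit by 0.40, 0.38 and 0.36, and Lag3 by 0.65, 0.64 and 0.73. Tumors 7 to 9 against the controls gave 0 members called in either direction, with 0.0247% of 36449 genes called higher and 0.0247% lower, and a median log2 fold change over all genes of -0.01.

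**Figure D1:**
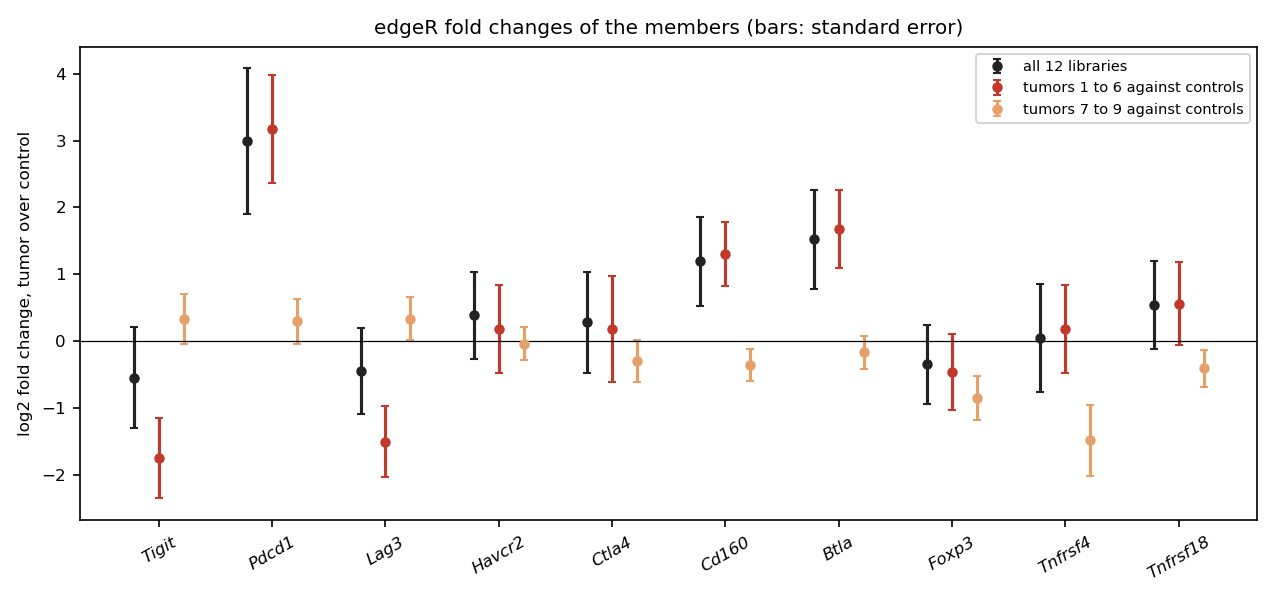
Log2 fold changes of the 10 genes, tumor over control, from edgeR with TMM factors, with bars of 1 standard error on each side. Black points use all 12 libraries, red points tumors 1 to 6 against the 3 controls and orange points tumors 7 to 9 against the same controls; Pdcd1 stands highest in both of the first 2 fits, at 2.99 and 3.18, and Tigit moves from -0.55 to -1.75 when tumors 7 to 9 are left out.

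A second reading that needs no scaling between libraries set each gene against the receptor genes of its own library. A gene was counted as above background where its density exceeded the 95th percentile of the receptor genes. This limit was passed by 3.39%, 3.32% and 3.37% of all genes in controls 1 to 3 and by 3.2%, 3.54% and 3.33% in tumors 7 to 9. In tumors 1 to 6 it was passed by 14%, 14.7%, 22.1%, 19.8%, 23% and 26.2%. Of the 10 members, 1 passed in each control and in each of tumors 7 to 9, and that gene was Tigit every time. Tumors 1 to 6 had 2, 1, 2, 3, 2 and 4 members above the limit. Lag3, Havcr2, Ctla4 and Foxp3 did not pass it in any of the 12 libraries. In all, 20 of 120 pairs of a gene and a library lay above it. The limit itself matters. With the 90th or the 99th percentile 35 or 3 pairs passed, beside 16.6% or 4.59% of the pairs over all genes. With the Olfr or the Vmn genes alone 18 or 64 passed, beside 10.3% or 32.3% of the pairs over all genes.

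**Figure D2:**
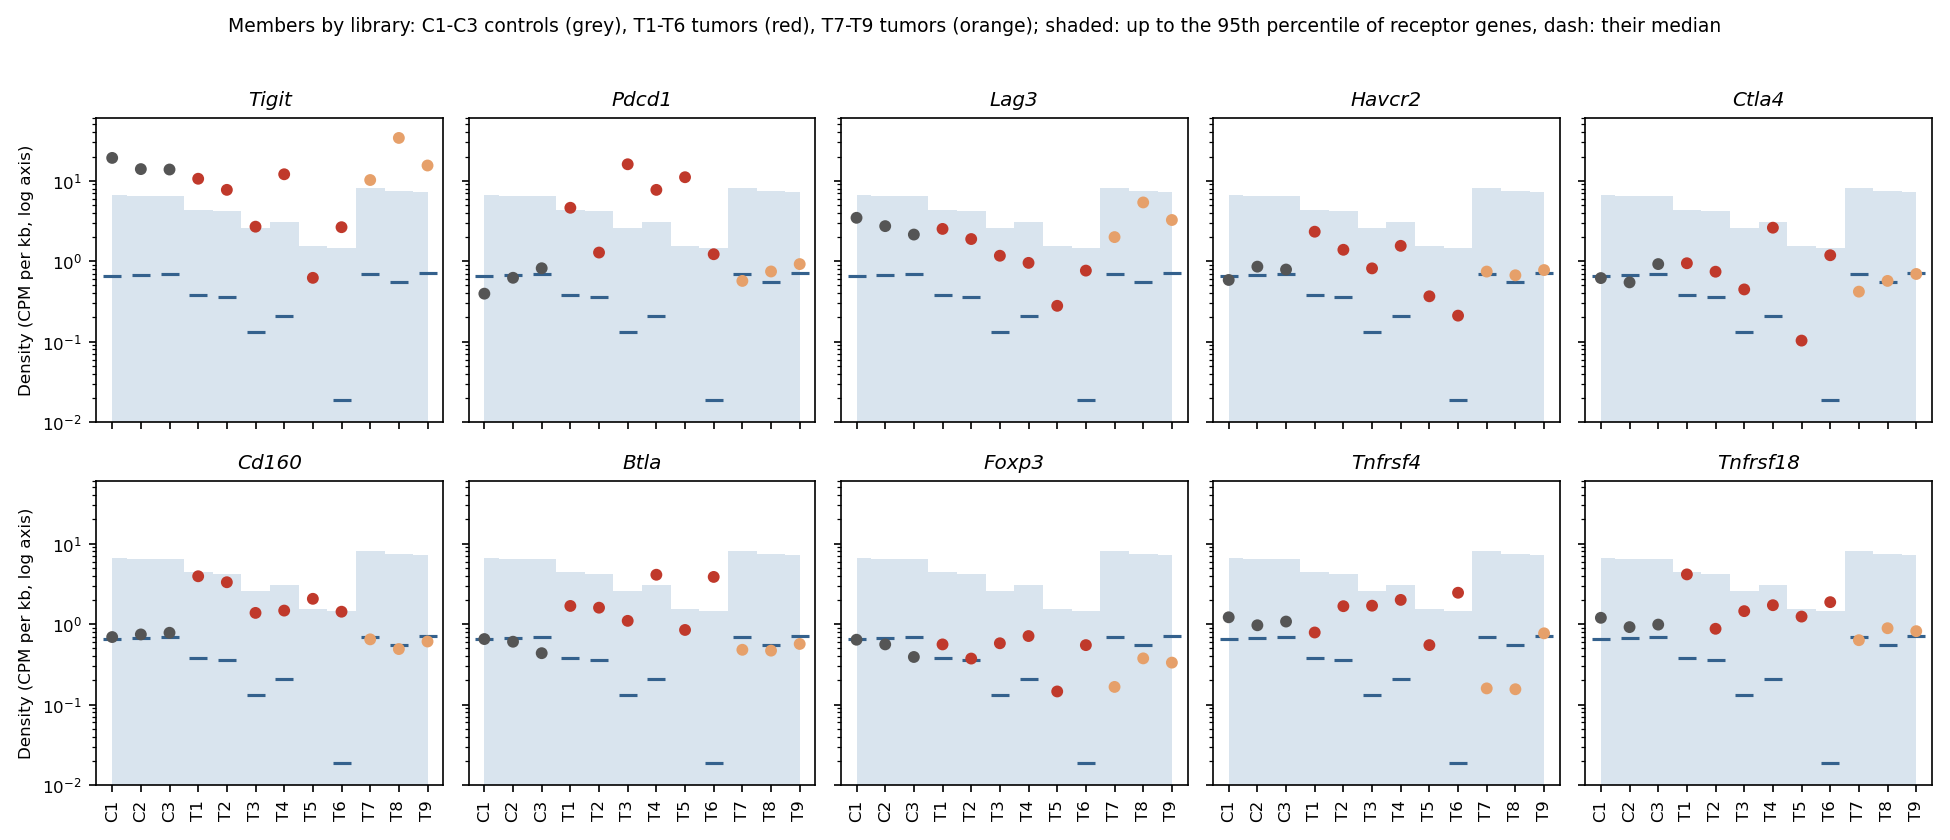
Density of each gene in each library, in CPM per kilobase on a log axis, with controls C1 to C3 in grey, tumors T1 to T6 in red and T7 to T9 in orange. The shaded band reaches the 95th percentile of the receptor genes in that library and the dash is their median (0 in T5, not drawn); Tigit lies above the band in 11 of 12 libraries, Pdcd1 in T1, T3, T4 and T5.

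Pdcd1, which encodes PD-1, the receptor for the ligands PD-L1 and PD-L2, had the largest fold change of the 10 genes. The gene (ENSMUSG00000026285) lies on chromosome 1 of GRCm38, from 94038305 to 94052553 on the minus strand, and is listed with 1 transcript. It had 0.762, 1.20 and 1.58 CPM in controls 1 to 3. Tumors 1 to 6 had 8.90, 2.47, 30.9, 14.9, 21.3 and 2.36 CPM and tumors 7 to 9 had 1.10, 1.44 and 1.78. On this TMM scale tumors 1 to 6 all lay above all 3 controls, and tumors 7 to 9 overlapped them. The counts behind these levels were 23, 33 and 39 in the controls, up to 535 in tumor 5, and 19 and 37 in tumors 2 and 6. The fold change over all 12 libraries was 2.99 on the log2 scale (SE 1.09, edgeR adjusted p = 0.137, unadjusted p = 0.0133) and 7 of 9 tumors stood above the highest control. Without tumors 7 to 9 it was 3.18 (SE 0.808, edgeR adjusted p = 0.00775). With library totals in edgeR these values were 0.55 (adjusted p = 0.614) and 0.86 (adjusted p = 0.315), so the call was lost under that scaling. Against the receptor genes' 95th percentile Pdcd1 stood at 7.16 times in tumor 5, 6.14 in tumor 3, 2.52 in tumor 4 and 1.05 in tumor 1, with 0.83 in tumor 6 and 0.30 in tumor 2. In the controls it stood at 0.0594 to 0.128 times that limit and in tumors 7 to 9 at 0.0694 to 0.129. Its level in the controls thus lay near the receptor genes' median, at 0.61 to 1.19 times that median. In bulk libraries such as these, fewer cells that carry a transcript and less of it per cell cannot be told apart. The controls also showed little of other T cell genes: of the 10 T cell markers 2, 0 and 0 passed the limit in controls 1 to 3. The part of background in the control level of Pdcd1 was not tested.

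Cd160 is a receptor of T and natural killer cells for the herpesvirus entry mediator, and Btla a second inhibitory receptor for the same ligand. Both were also higher in tumors 1 to 6 with TMM factors, but not with library totals. Cd160 (ENSMUSG00000038304) had 1.79, 1.93 and 2.02 CPM in the controls, 10.2, 8.59, 3.57, 3.82, 5.35 and 3.70 in tumors 1 to 6, and 1.68, 1.27 and 1.58 in tumors 7 to 9. All of tumors 1 to 6 stood above, and all of tumors 7 to 9 below, the 3 controls. Its fold change was 1.19 on the log2 scale over all libraries (SE 0.666, edgeR adjusted p = 0.408) and 1.30 without tumors 7 to 9 (SE 0.477, edgeR adjusted p = 0.0443), a call lost with RLE factors (adjusted p = 0.0843). The receptor-gene limit was passed in tumor 5 alone, at 1.34 times, with tumors 6 and 1 at 0.97 and 0.90 times. Btla (ENSMUSG00000052013) had 2.12, 1.97 and 1.42 CPM in the controls and 1.56, 1.52 and 1.84 in tumors 7 to 9. Tumors 1 to 6 had 5.47, 5.20, 3.57, 13.4, 2.75 and 12.6 CPM, with tumors 4 and 6 far above the rest and all of them above the controls. The Btla fold change was 1.52 over all libraries (SE 0.743, edgeR adjusted p = 0.298). Without tumors 7 to 9 it was 1.68 (SE 0.579, edgeR adjusted p = 0.0352), also a call lost with RLE factors (adjusted p = 0.0516). With library totals it was -0.55 there (edgeR adjusted p = 0.452). Btla stood at 2.63 times the receptor-gene limit in tumor 6, from 197 counts, and at 1.34 times in tumor 4, from 98 counts. B cells carry Btla too. The 5 B cell markers (Cd79a, Cd79b, Ms4a1, Pax5 and Fcer2a) summed to 23.6 to 26.0 CPM across controls and 22.1 to 28.7 across tumors 7 to 9. Across tumors 1 to 6 they summed to 3.31 to 17.9, with 17.9 in tumor 4 and 4.01 in tumor 6. In tumor 4, 1 of 5 passed the limit (Ms4a1, at 1.00 times), near the 19.8% of all genes that passed there. None passed elsewhere. Natural killer cell markers (Ncr1, Klrb1c, Klra8, Klre1, Klrk1 and Nkg7) summed to 2.23 to 24.4 CPM in tumors 1 to 6 and 17.1 to 19.2 in the controls, and none of the 6 passed the limit in any library. By CPM scaled with TMM factors, 20.3% of all tested genes had tumors 1 to 6 all above the controls, as 3 members did. Another 26.6% had them all below, as 1 member (Tigit) did. With all 9 tumors the shares of genes were 1.62% and 3.1%, and 0 members stood in either.

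Promoters are shown for the 3 genes that stood higher in tumors 1 to 6 with TMM factors. The reason is that the induced receptor signals through STAT5, whose binding motif has the letters TTCNNNGAA. The windows run from 250 bases before to 50 bases after the annotated start, 5′ to 3′ on the gene's strand, from RefSeq on GRCm38.p6, in lower case with any TTCNNNGAA in capitals. The Pdcd1 window is chr1:94052504-94052803 on the minus strand, the Cd160 window, of the 2 listed for that gene the one with a match, is chr3:96814472-96814771 on the minus strand, and the Btla window is chr16:45224087-45224386 on the plus strand.
Pdcd1: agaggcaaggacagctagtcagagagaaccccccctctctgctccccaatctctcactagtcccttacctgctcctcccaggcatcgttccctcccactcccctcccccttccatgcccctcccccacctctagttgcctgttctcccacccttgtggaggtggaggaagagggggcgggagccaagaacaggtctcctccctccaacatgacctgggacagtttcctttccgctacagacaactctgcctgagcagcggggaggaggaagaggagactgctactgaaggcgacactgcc
Cd160: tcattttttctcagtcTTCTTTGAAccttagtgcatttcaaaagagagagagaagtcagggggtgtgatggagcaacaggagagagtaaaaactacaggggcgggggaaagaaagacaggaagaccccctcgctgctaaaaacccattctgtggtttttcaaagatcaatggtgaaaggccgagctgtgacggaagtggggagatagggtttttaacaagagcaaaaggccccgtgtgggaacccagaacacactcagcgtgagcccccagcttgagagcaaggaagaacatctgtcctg
Btla: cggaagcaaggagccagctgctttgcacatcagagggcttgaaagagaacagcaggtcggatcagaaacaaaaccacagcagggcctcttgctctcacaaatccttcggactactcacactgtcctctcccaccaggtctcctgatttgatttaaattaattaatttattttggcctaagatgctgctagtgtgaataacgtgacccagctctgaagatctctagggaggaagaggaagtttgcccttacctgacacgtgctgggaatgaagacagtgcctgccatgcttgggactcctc
The Cd160 window, chosen because it has a match, holds 1, and the Pdcd1 and Btla windows hold none. The other Cd160 window (chr3:96829302-96829601, minus strand) holds no match, and no NFAT core as described below. Of the 10 genes, 9 matched the promoter table, with 11 windows, and 3 had the motif: Cd160, Foxp3 (chrX:7580233-7580532) and Tnfrsf18 (chr4:156026072-156026371). The motif reads the same on both strands apart from its middle letters. Of all 32851 windows 8.30% hold it, a share of windows and not of genes. The GGAAA core bound by NFAT, searched on both strands, stood in 2 places in the Pdcd1 window, 1 in the Cd160 window and none in the Btla window, and 61.3% of all windows hold it. These are matches of letters in a short window and not measured binding.

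Tigit, the inhibitory receptor for Pvr and Nectin2, had the highest density of the 10 genes in every control, at 13.8 to 19.2 CPM per kilobase. It (ENSMUSG00000071552, chromosome 16, 43648867 to 43664146, minus strand) had 18.5, 13.4 and 13.3 CPM in the controls. Tumors 1 to 6 had 10.2, 7.42, 2.59, 11.6, 0.598 and 2.55 CPM, and tumors 7 to 9 had 9.83, 32.8 and 14.9. All of tumors 1 to 6 lay below the lowest control, tumor 8 lay above the highest and tumor 7 below the lowest. The log2 fold change was -0.55 over all libraries (SE 0.755, edgeR adjusted p = 0.692) and -1.75 without tumors 7 to 9 (SE 0.602, edgeR adjusted p = 0.0347). Leaving out tumor 8 alone moved it to -1.21 (edgeR adjusted p = 0.342). Set against the receptor genes of the same library, Tigit stood at 2.15 to 2.89 times their 95th percentile in the controls, 1.03 to 3.94 times in tumors 1 to 4 and 6, 0.40 times in tumor 5, and 1.24 to 4.54 times in tumors 7 to 9. Lag3, a receptor for class II molecules and fibrinogen-like protein, followed a similar course at a lower level, with 6.93, 5.46 and 4.29 CPM in the controls, 5.04, 3.77, 2.34, 1.91, 0.558 and 1.53 in tumors 1 to 6, and 3.99, 10.7 and 6.51 in tumors 7 to 9. Tumor 8 was again the highest and tumor 5 the lowest, and tumors 1 and 9 lay within the controls. Its log2 fold change was -0.45 over all libraries (SE 0.643, edgeR adjusted p = 0.70) and -1.503 without tumors 7 to 9 (SE 0.528, edgeR adjusted p = 0.0377), and -0.98 without tumor 8 alone (edgeR adjusted p = 0.387). It stayed at 0.181 to 0.717 times the receptor-gene limit in all 12 libraries.

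The transcripts of Tigit and Lag3 share a feature with many unrelated genes. Only the GENCODE M21 copy of each member's longest deposited transcript was searched. The Tigit transcript holds an unbroken run of CT or AG repeats 30 bases long in its 3′ untranslated region (positions 876 to 905). This Tigit copy is 919 bases long, against 963 in the deposited data. The longer Lag3 transcript holds a CT or AG run 46 bases long in its 5′ untranslated region (positions 208 to 253). No other member's searched transcript holds a run of 10 or more CT or AG units. The longer Havcr2 transcript holds a GT or AC run of 54 bases in its 3′ untranslated region. This search was made after the levels had been seen. Of the 889 windows of 31 bases in the Tigit transcript, 8.89% also occur in transcripts of other genes, 1131 of them in number, and 2.49% of the 1971 windows of that Lag3 transcript occur in 1140 other genes. Pdcd1, Ctla4, Btla and Tnfrsf4 have no such window in their longest transcript. A CT or AG run is present in 2.62% of all genes and in 6.67% of the receptor genes. Receptor genes with a run had 1.69 to 1.95 times the median density of those without in the controls, 1.91 to 7.62 times in tumors 1 to 4 and 6, and 1.92 to 3.31 times in tumors 7 to 9, highest there in tumor 8. Among the 1351 genes with a run, Tigit stood at the 97.1 to 97.6 percentile of density across controls, at 93.8 to 97.8 for tumors 7 to 9, and at 52.0 to 89.8 for tumors 1 to 6. Lag3 stood at the 65.4 to 74.7, 56.9 to 77.3 and 35.5 to 57.8 percentile. Among the 93 receptor genes with a run, the groups lay closer: Tigit stood at the 96.8 to 97.8 percentile across controls and at 96.8, 93.5, 88.2, 97.8, 77.4 and 96.8 in tumors 1 to 6, and Lag3 at 73.1 to 82.8 and 64.5 to 82.8. Tigit had 2.46 to 3.10 counts for each Lag3 count across controls, 2.29 to 3.05 across tumors 7 to 9, and 1.08 to 6.18 across tumors 1 to 6. The part that shared repeats had in the counts of Tigit and Lag3 was not tested.

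**Figure D3:**
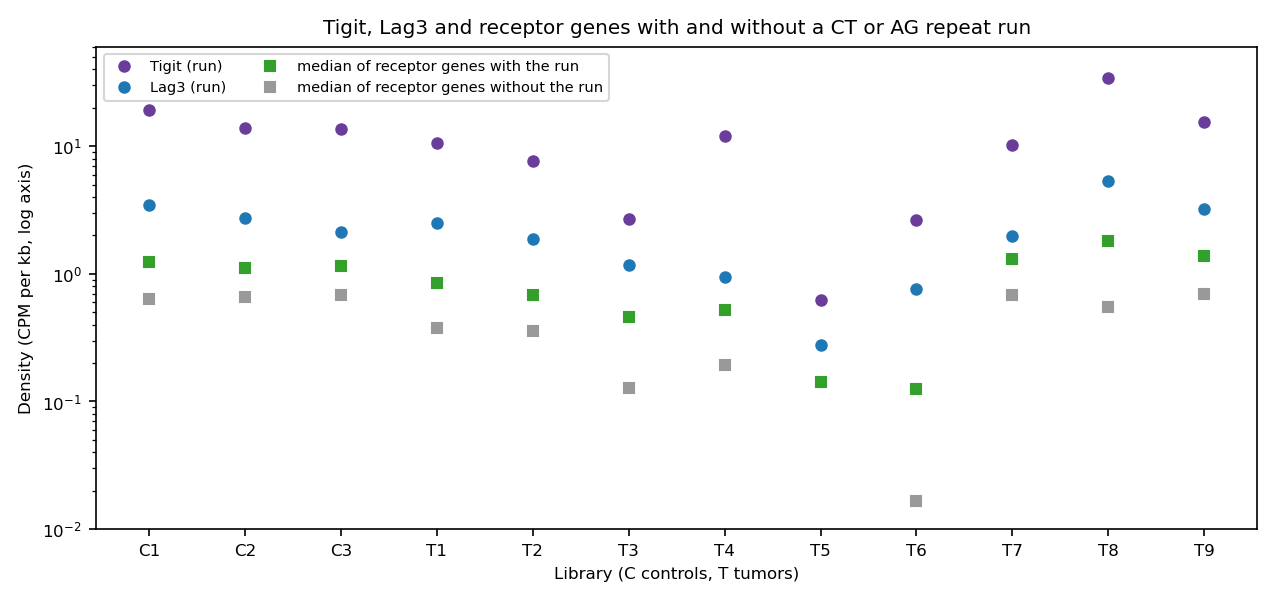
Density of Tigit and Lag3 in each library, in CPM per kilobase on a log axis, beside the median of receptor genes with a CT or AG run (93 genes) and without one (1301 genes). The median with a run lies above the median without one in every library (the latter is 0 and not drawn in T5) and Tigit lies above both medians in all 12 libraries.

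Havcr2, which encodes TIM-3 and is carried by macrophages and dendritic cells as well as by T cells, had 1.59, 2.33 and 2.14 CPM in the controls. Tumors 1 to 6 had 6.33, 3.77, 2.22, 4.23, 0.997 and 0.573 CPM and tumors 7 to 9 had 2.02, 1.82 and 2.11. Tumors 1, 2 and 4 lay above the controls, tumors 5 and 6 below, and the rest among them. The fold change of 0.39 on the log2 scale (SE 0.649, edgeR adjusted p = 0.733) was smaller than its standard error and turned negative with RLE factors (-0.07) and with library totals (-1.61). Macrophage markers stood beside it: the 8 markers Adgre1, Csf1r, Cd68, C1qa, C1qb, C1qc, Fcgr1 and Mertk summed to 72.3 and 65.3 CPM in tumors 1 and 2, 29.3 in tumor 3, and 12.2 to 17.2 in tumors 4 to 6. Controls had 13.5 to 17.3 CPM, and 13.3 to 15.0 was the range for tumors 7 to 9. In tumor 1, 3 of the 8 passed the receptor-gene limit, in tumor 2, 2 of 8, in tumors 3, 5 and 6, 1 of 8 each, and in tumor 4 none. Of all genes, 14%, 14.7%, 22.1%, 19.8%, 23% and 26.2% passed it in tumors 1 to 6. The limit differed between libraries, at 3.06 CPM per kilobase in tumor 4, 1.54 in tumor 5 and 1.47 in tumor 6. Havcr2 stood at 0.51, 0.24 and 0.14 times the limit in these tumors. The part of macrophages in the Havcr2 level was not tested.

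Ctla4 and Foxp3, the receptor and the transcription factor most closely tied to regulatory T cells, stayed within the range of the receptor genes. Ctla4, which competes with Cd28 for their common ligands, had 1.19, 1.06 and 1.78 CPM in the controls, 1.82, 1.43, 0.862, 5.04, 0.199 and 2.29 in tumors 1 to 6, and 0.809, 1.10 and 1.34 in tumors 7 to 9. Tumor 4 was highest, from 37 counts, and tumor 5 lowest, from 5 counts. Ctla4 came nearest to the limit in tumors 4 and 6, at 0.85 and 0.81 times, and stood at 0.0510 to 0.144 times in the controls and tumors 7 to 9. Its log2 fold change was 0.28 (SE 0.754, edgeR adjusted p = 0.824), and it turned negative with RLE factors (-0.19) and with library totals (-1.65). Foxp3 (chromosome X, 7573644 to 7595245, plus strand) had 2.45, 2.15 and 1.497 CPM in the controls, 2.15, 1.43, 2.22, 2.73, 0.558 and 2.10 in tumors 1 to 6, and 0.636, 1.44 and 1.27 in tumors 7 to 9. Tumors 1, 3 and 6 lay among the controls, tumor 4 above them and the other 5 tumors below. Its log2 fold change was -0.35 (SE 0.594, edgeR adjusted p = 0.739). Foxp3 stood at the 9.08 to 49.1 percentile of the receptor genes across controls, at 2.93 to 23.0 for tumors 7 to 9 and at 51.0 to 86.6 for tumors 1 to 6, highest in tumor 6. Of its 3804 windows of 31 bases, 16.3% also occur in the overlapping or neighbouring genes Ccdc22, Gm36995 and Flicr, so part of its count could belong to them.

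Tnfrsf4, which encodes OX40, and Tnfrsf18, which encodes GITR, are neighbours on chromosome 4, where 9551 bases separate the end of the first from the start of the second. Tnfrsf4 had 1.33, 1.06 and 1.17 CPM in the controls, 0.858, 1.82, 1.85, 2.18, 0.598 and 2.68 in tumors 1 to 6, and 0.173, 0.169 and 0.838 in tumors 7 to 9. Tumors 2, 3, 4 and 6 lay above the controls and the other 5 below, with only 3 and 4 counts in tumors 7 and 8. Its log2 fold change was 0.04 (SE 0.806, edgeR adjusted p = 0.975), with RLE factors -0.46 and with library totals -2.00. Of its 3 listed transcripts the protein-coding one received 25.1 estimated counts in tumor 6, 7.46 in tumor 1 and 0 in each of the other tumors, and 28.9, 3.57 and 5.71 in the controls. Tnfrsf18 had 1.43, 1.09 and 1.17 CPM in the controls, 4.93, 1.04, 1.72, 2.04, 1.48 and 2.23 in tumors 1 to 6, and 0.751, 1.06 and 0.972 in tumors 7 to 9. Tumor 1 stood apart, from 46 counts, tumors 2 and 7 to 9 lay below the controls, and the other tumors lay above them. The log2 fold change was 0.54 (SE 0.662, edgeR adjusted p = 0.672), and with library totals -1.46. Of its 1159 windows of 31 bases, 21.2% also occur in Gm16008. Both genes passed the receptor-gene limit in tumor 6, Tnfrsf4 at 1.67 times from 42 counts and Tnfrsf18 at 1.28 times from 35 counts, and in no other library.

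Tumor 6 had the most members above background. Its 4 were Btla, Tigit, Tnfrsf4 and Tnfrsf18, against 26.2% of all genes there, and this tumor also had the lowest limit of the 12 libraries, at 1.47 CPM per kilobase. Of 14 further genes of the regulatory T cell program, 8 passed the limit in tumor 6 and 2 to 5 in tumors 1 to 5. In tumors 1 to 5, 14% to 23% of all genes passed. None of the 14 passed in the controls or tumors 7 to 9. The 8, named after their values were seen, were Gpr83 at 9.64 times the limit, Ikzf2 at 5.04, Nrp1 at 3.38, Izumo1r (folate receptor 4) at 2.79, Il2ra at 2.13, Ccr4 at 1.84, Capg at 1.67 and Ccr8 at 1.11. The rest of the list stayed below the limit in tumor 6: Itgae at 0.73 times, Il2rb 0.55, Il10 0.46, Ikzf4 0.23, Lrrc32 0.22 and Ebi3 0.11. Foxp3 in tumor 6 stood at 0.37 times the limit, from 33 counts. Of these, only Gpr83 and Ccr8 passed in tumor 6 alone. Ikzf2 stood at 13.7, 13.9 and 22.5 times the limit in tumors 3, 4 and 5. Il2ra stood at 3.82 times, Nrp1 at 2.83 and Capg at 1.06 in tumor 2. Ccr4 passed in 5 of tumors 1 to 6, with 2.00 times in tumor 4, and Izumo1r in 4 of them. Ikzf2, which encodes Helios, had the highest mean CPM of the program over the 12 libraries, with 68.7, 61.5, 332, 393, 322 and 68.6 CPM against 6.41 to 8.69 in the controls and a log2 fold change of 4.28 (SE 1.33, edgeR adjusted p = 0.129). Il2ra, the interleukin-2 receptor alpha chain, had 70.9 CPM in tumor 2 and 5.86 to 13.8 in the other 5 of tumors 1 to 6, against 7.32 to 13.1 in the controls (log2 fold change 1.05, SE 0.721, edgeR adjusted p = 0.546).

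The other genes of the pathway gave 0 calls after adjustment in every list, at the 0% and 0.00494% of all genes given above, and differed in how many members stood above background. Among 12 ligands of the receptors, 1 was higher at an unadjusted p below 0.05 and the median log2 fold change was 0.04. Cd274, which encodes PD-L1, had 11.5 to 24.1 CPM across controls, 10.9 to 42.8 across tumors 1 to 6 and 29.4 to 55.3 across tumors 7 to 9 (log2 fold change 1.07, SE 0.609, edgeR adjusted p = 0.425). Lgals9, a ligand of Havcr2, had 1.60 to 2.52 CPM across controls, 21.1 to 37.9 across tumors 1 to 6 and 1.56 to 2.37 across tumors 7 to 9 (log2 fold change 3.47, SE 1.08, edgeR adjusted p = 0.129). Among 16 other co-receptors, 5 were higher at an unadjusted p below 0.05. In tumors 1 to 6, 4 to 6 of the 16 stood above the limit, beside 14% to 26.2% of all genes, so some counts lay near that share. None stood above it elsewhere, beside 3.2% to 3.54% of all genes. Among the co-receptors Cd28, the receptor that Ctla4 competes with, had 25.1 to 154 CPM in tumors 1 to 6 and 3.12 to 6.83 in the controls. Cd27 had 30.4 to 70.1 and 3.44 to 5.57. Among 14 transcription factors of activation and exhaustion, 4 were higher at an unadjusted p below 0.05. Tox, a factor of thymocyte selection that also marks exhausted cells, had 43.6 to 260 CPM in tumors 1 to 6 and 5.86 to 19.5 in the controls (log2 fold change 3.04, SE 1.14, edgeR adjusted p = 0.146), and Nfatc1 had 18.0 to 34.6 and 4.48 to 7.46. Of 8 genes of inhibitory signaling, 7 enzymes and the adaptor Sh2d1a, 7 were higher at an unadjusted p below 0.05, the median log2 fold change was 3.05, and 7 or 8 passed the limit in each of tumors 1 to 6. Dgkz, a diacylglycerol kinase, had 72.9 to 243 CPM in tumors 1 to 6 and 4.05 to 6.53 in the controls, and Cblb, a ubiquitin ligase, had 40.0 to 165 and 3.02 to 4.33. T cell markers showed the same split, with a median log2 fold change of 4.03 and all 10 higher at an unadjusted p below 0.05. Thy1 had 283 to 341 CPM across tumors 1 to 6, 7.69 to 26.4 across tumors 7 to 9 and 4.77 to 9.88 across controls, and Cd3g had 143 to 467, 5.00 to 12.4 and 2.06 to 20.9. The 10 members had a median of 0.34 and 1 higher at an unadjusted p below 0.05, beside 6853 of 40521 genes that were.

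**Figure D4:**
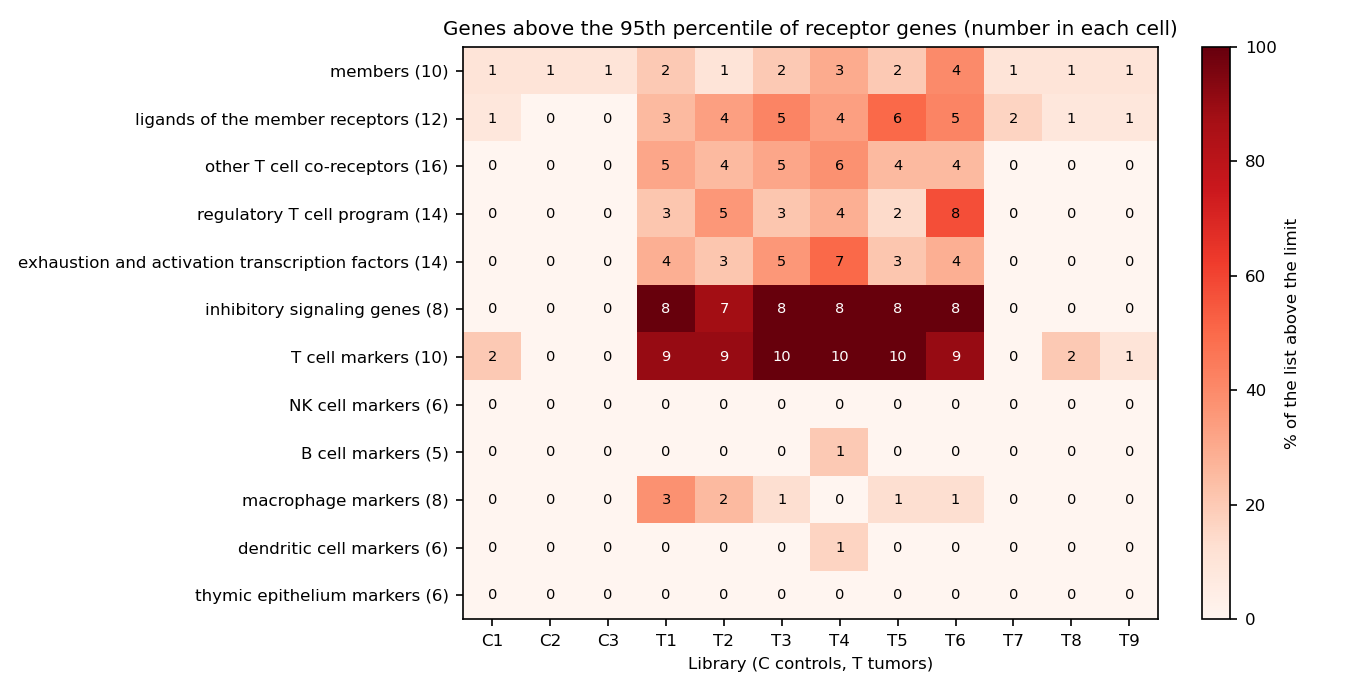
Number of genes of each list, printed in the cells, whose density exceeds the 95th percentile of receptor genes in each library; the color gives the percent of the list. Controls and T7 to T9 hold 1 of the 10 members each, T6 holds 4, and the T cell markers go from 0 to 2 in controls and T7 to T9 up to 9 or 10 in T1 to T6.

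Among markers of other cells, those of macrophages passed the limit most often, a count to be read against the share of all genes. In tumors 1 to 6, 3, 2, 1, 0, 1 and 1 of the 8 macrophage markers passed. Of all genes, 14%, 14.7%, 22.1%, 19.8%, 23% and 26.2% passed in the same tumors. Median log2 fold changes were -0.45 for the natural killer cell markers, -0.56 for B cell, 0.97 for macrophage, -0.26 for dendritic cell and -0.44 for thymic epithelium markers, with 1 macrophage marker and no other at an unadjusted p below 0.05. Among these lists, Klre1 and Klrk1, Ms4a1 and Fcer2a, Xcr1 and Siglech, and Psmb11 and Aire had the highest mean CPM, with edgeR adjusted p of 0.511 to 0.928. Of the macrophage markers, 4 of 8 passed the limit in at least 1 of tumors 1 to 6 and none elsewhere. Cd68 stood at 2.19, 2.14, 2.26 and 2.29 times the limit in tumors 1, 2, 3 and 6, C1qa at 2.42 in tumor 1, C1qb at 1.44 and 1.36 in tumors 1 and 2, and Adgre1 at 1.09 in tumor 5, genes named here after their values were seen. Of the markers named by mean CPM, which passed in no library, Csf1r had 1.40 to 16.9 CPM in tumors 1 to 6 and 2.73 to 3.68 in the controls, and Mertk 1.08 to 11.6 and 3.20 to 4.41. The dendritic cell markers (Itgax, Flt3, Xcr1, Clec9a, Siglech and Zbtb46) summed to 29.8 to 31.4 CPM across controls and 8.41 to 38.8 across tumors 1 to 6, and 1 of 6 passed the limit in tumor 4.

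Tigit and Pdcd1 were the members above the limit in at least 3 of tumors 1 to 6, and for these the genes of most similar course were sought. Over these 6 libraries and 11477 genes with a mean of at least 5 CPM, the genes most like Tigit by Pearson correlation of log2(CPM + 1) were Ifih1, an RNA sensor, at r = 0.993, and Gm26782 at 0.989. The genes most like Pdcd1 were Casp8, a caspase, at r = 0.994, and Cebpz at 0.990. With 6 points that share libraries and scaling, and so many genes searched, such values describe a course and are given without a test. Ifih1 went from 1.80 CPM in tumor 5 to 20.6 in tumor 4, as Tigit went from 0.598 to 11.6. Casp8 went from 33.8 CPM in tumor 2 to 57.0 in tumor 3, a much narrower range than the 2.36 to 30.9 CPM of Pdcd1.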

How the data were processed

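PolyA RNA of 3 control and 9 tumor thymus libraries was sequenced from both ends (75 bases each). Per the file headers, the authors deposited estimated counts and TPM values for each transcript. kallisto, FastQC and mm10 are named in the submitters' processing notes. Tool versions and the annotation release are not stated there. kallisto divides reads among transcripts that share sequence, so counts of overlapping genes or genes with shared repeats are uncertain.

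Estimated counts were summed by Ensembl gene identifier, giving 51826 genes (51633 of them in GENCODE M21 of GRCm38), and rounded. Each member's symbol belongs to a single identifier. Tumors and controls were compared with edgeR 4.0.16 (quasi-likelihood F test, TMM factors, filterByExpr by group, Benjamini-Hochberg adjustment over 40521 genes, threshold 0.05) in R 4.3.3. A standard error is the fold change divided by the root of F. DESeq2 1.42.0 and limma 3.58.1 on log2(TPM + 1) or log2(TPM + 0.1) were alternatives. The edgeR step was tested on simulated data. All simulated libraries shared a single pooled gene profile, without the split between libraries described above, so the simulation does not check the fit under that split. No pair of replicates agreed within sampling noise (lowest chi-square per degree of freedom 3.29).

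Density is CPM per kilobase of a gene's longest deposited transcript, and the background limit is the 95th percentile of 1432 Olfr and Vmn genes (symbols with -ps left out) in the same library. The members, lists, tests and the split of tumors 1 to 6 from 7 to 9 were chosen with earlier results of these data known. The text names all members, the 2 genes of highest mean CPM in each of 11 other lists, and the 2 genes most like each member above the limit in at least 3 of tumors 1 to 6. Promoter windows come from RefSeq (GRCm38.p6). Lag3 is not among the matched windows. 1 marker gene of the B cell list is not reported here.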

Additional observations from a re-analysis of the deposited data

Results flagged for a closer look

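Tnfrsf18 in tumor 1 lay apart from the other 8 tumors. On the log2(CPM + 1) scale its gap to the next highest tumor took 0.498 of the range of the 9 tumors, just over the Dixon limit for groups of this size. Its level was 4.93 CPM, from 46 counts, against 0.751 to 2.23 CPM in the others. Chance alone flags about 1 in 20 groups, and 10 members were tested.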

How the results depend on the processing

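The number of members called depended on the libraries, the tool and the scaling, and the cause was not tested. DESeq2 called 4039 genes higher and 51 lower, 1 member among the higher. limma on log2(TPM + 1) called 131 genes higher and 32116 lower, 8 members among the lower, and with a pseudocount of 0.1 it called 119 and 31026, 7 members among the lower. Without tumors 7 to 9 the counts were 7562 higher and 7823 lower (members 3 and 2), with RLE factors as well 6956 and 12530 (members 1 and 2), and with library totals 1655 and 28826 (members 0 and 7). Tumors 7 to 9 alone gave 9 higher and 9 lower. The stricter filter, which tested 6 members, and the background covariate each gave 0 lower. Leaving out each library in turn gave 0 to 3 genes lower, 0 higher, and 0 members in either direction.

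Replicate numbers did not pair the libraries: deviations of same-numbered control and tumor libraries correlated at 0.11, 0.08 and -0.15. With the replicate block, in which tumors 4 to 9 have no control of their number and add nothing to the contrast, 8369 genes were called higher and 2330 lower, with 3 members higher (Pdcd1 3.07, Cd160 1.85 and Btla 1.37 on the log2 scale) and 1 lower (Tigit -1.31).

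Several log2 fold changes that had not passed the test changed sign, in part with the shift of all genes: the median over all genes was -0.45 with TMM factors, -0.72 with RLE factors, -1.83 with library totals, and -1.14 and -2.62 in limma with pseudocounts of 1 and 0.1. With RLE factors Havcr2 was -0.068, Ctla4 -0.19 and Tnfrsf4 -0.46, and with DESeq2 -0.072, -0.19 and -0.46. With library totals Havcr2 was -1.61, Ctla4 -1.65, Cd160 -1.05, Btla -0.63, Tnfrsf4 -2.00 and Tnfrsf18 -1.46, all but Tnfrsf4 above the median of all genes there. Without a filter Tnfrsf4 was -0.0064. limma on log2(TPM + 1) gave Pdcd1 -0.18, Havcr2 -0.94, Ctla4 -1.40, Cd160 -0.94, Btla -0.57, Tnfrsf4 -1.85 and Tnfrsf18 -1.08, and with a pseudocount of 0.1 -0.45, -2.06, -2.63, -1.63, -1.28, -3.08 and -1.83. Without tumors 7 to 9 and with RLE factors Havcr2 was -0.11, Ctla4 -0.15 and Tnfrsf4 -0.12, and with library totals Havcr2 -2.35, Ctla4 -2.22, Cd160 -1.03, Btla -0.55, Tnfrsf4 -2.04 and Tnfrsf18 -1.72. In tumors 7 to 9 alone Tigit was 0.33, Lag3 0.34, Havcr2 -0.037, Ctla4 -0.30, Cd160 -0.36, Btla -0.17, Tnfrsf4 -1.49 and Tnfrsf18 -0.41. With the background covariate Tigit was 0.56, Lag3 0.56, Havcr2 -0.10, Ctla4 -0.56, Cd160 -0.48, Btla -0.59, Tnfrsf4 -1.71 and Tnfrsf18 -0.51. Leaving out 1 library at a time, Havcr2 ran from -0.058 to 0.53, Ctla4 from -0.13 to 0.44, Tnfrsf4 from -0.25 to 0.20, Tigit from -1.21 to -0.39 and Lag3 from -0.98 to -0.30. Foxp3 was negative under every setting that tested it, but measured with TMM factors from the median of all genes it lay 0.10 above over all 12 libraries and 0.83 above without tumors 7 to 9, and from the receptor genes' median 0.54 and 1.69 above (with library totals over all 12 libraries it lay 0.36 and 0.07 below).

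The background count of 20 pairs became 35 with the 90th percentile, 3 with the 99th and 64 with Vmn genes alone, where 16.6%, 4.59% and 32.3% of all pairs of a gene and a library passed. At the 90th percentile 2 members passed in tumors 7 to 9, where single libraries passed 5.82% to 6.34% of all genes. At the 99th, 0 passed in the controls and 1 in tumors 1 to 6. There, single libraries passed 1.05% to 1.24% and 3.35% to 14.1% of all genes. With Vmn genes alone 4 passed in the controls, 10 in tumors 1 to 6 and 2 in tumors 7 to 9, where single libraries passed 21.1% to 29.98%, 35.7% to 44.5% and 18.2% to 32.2% of all genes. Depth limits the members with few counts, such as Tnfrsf4 at 3 counts in tumor 7 and Ctla4 at 5 in tumor 5.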
